A study of Drosophila melanogaster with 27 samples.

Results

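The transcripts described here had a fitted 24 h peak in the later dark phase, both in whole head extract and in the RNA that came down with AGO1. AGO1 immunoprecipitation was used to set the RNA of the precipitate (IP) beside that of the extract it was taken from (INPUT), on Affymetrix Drosophila arrays, 1 array per sample. The 27 arrays came from heads of adult Drosophila melanogaster kept in 12 h of light and 12 h of dark, with time given in hours from lights on (Zeitgeber time, ZT). Flies labelled Tim-Dcr gave 4 arrays, 1 for each fraction at ZT3 and ZT15, and their labels carry no replicate number and do not say what the name stands for. Wild-type flies gave 12 IP arrays and 11 INPUT arrays at ZT3, ZT7, ZT11, ZT15, ZT19 and ZT23, 2 arrays for each, save for INPUT at ZT3 with a single array. The series' text calls the wild-type replicates biological; no strain, sex, age or number of pooled heads is stated in the labels.

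The members were chosen by their values on the wild-type arrays. A level, a 24 h cosine and a 24 h sine were fitted to each probe set in each fraction, which gives a fitted peak time, a peak-to-trough difference in log2 and the share of variance the rhythm takes (R squared). A member had 1 gene symbol, a mean INPUT level above 5 in log2, a peak-to-trough difference of at least 0.8 and an R squared of at least 0.5 in each fraction, and both peaks between ZT16 and ZT24. Of 13647 probe sets with 1 gene symbol, for 11982 genes, 29 met the rule, 1 for each of 29 genes. The rule leaves out some names, and of the probe sets so removed Achl, CG34134, Cyp18a1 and Cyp4d21 met every other condition. A further 42 probe sets had a rhythm of this size in both fractions but peaked at other times, 26 of them with both peaks in the light. Because levels, amplitudes, fits and peak times chose the members, they are given below as a description, with no test.

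The fly clock is a feedback loop in which CLK and CYC switch on per and tim around dusk, and PER and TIM later shut CLK and CYC down. Output genes follow at many phases; those driven directly by CLK and CYC tend to crest in the early night, whereas Clk and cry crest around dawn. In the head a large part of the rhythmic RNA comes from the eye, whose photoreceptors and pigment cells keep their own clocks. AGO1 is the Argonaute protein that carries microRNAs in flies, and an mRNA that is bound through them is recovered with it.

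In order of their INPUT peak the members were CG10175, Myo28B1, CG14221, rdhB, CG42367, M7BP, sn, CG7149, CG15760, CG8419, CG34253, mah, se, CG43092, fru, CG2202, Pepck2, CAH2, CG9757, CG4842, pinta, CG1441, t, Ndae1, Acsx3, CG17127, CG18609, Ank2 and CG10513. Of these, 14 carry a gene name and 15 only a CG number, whose function the annotation used here does not give. All 29 symbols matched a gene of the RefSeq table. They lay on chromosomes X (5), 2L (6), 2R (4), 3L (5) and 3R (9), and 0 pairs of members were neighbours in the gene order of Release 6; the closest, rdhB and pinta, were 26 genes apart. None of 16 measured core clock genes was a member.

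The wild-type arrays held RNA of a head with some of other tissue. Replicate arrays correlated at 0.981 to 0.994. The 4 measured photoreceptor markers of 8 listed averaged 10.3 to 11.1 in IP and 11.9 to 12.3 in INPUT on wild-type arrays. On those arrays the neuron list averaged 8.33 to 9.05 in IP, the glia list 10.0 to 10.4 and the fat body list 9.27 to 9.77. Not every single marker was high. Fbp1 of the fat body list stayed at 3.32 to 3.78 in IP and 4.77 to 5.25 in INPUT. In IP, Lsp2 of the same list ran from 4.92 to 6.94, and the neuron marker brp from 6.11 to 6.86. Gut, testis and male gland lists, with 3 of 3 markers measured each, also averaged high in INPUT, at 11.2 to 12.0 for gut. Of 2 measured ovary markers, vas stayed at 3.53 to 3.92 in INPUT and osk ran from 3.74 to 9.62. Gut, testis, male gland, muscle and ovary lists had a 24 h R squared of 0.0728 or less in INPUT and of 0.198 or less in IP. In IP the neuron list reached 0.237 and the fat body list 0.216. The photoreceptor list had an R squared of 0.643 in IP, with a peak-to-trough difference of 0.44 and a peak at ZT6.98, by day, and 0.0606 in INPUT. The part of these lists in the members' IP rhythms was not tested. The muscle marker Act88F was uneven, at 6.40 to 11.01 in IP and 7.73 to 11.6 in INPUT. In whole tissue, fewer cells of a type and less RNA per cell cannot be told apart.

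One array stood apart for the members. The second IP array at ZT3 read higher than the first for 25 of 29 members, by a median of 0.41 in log2 and by over 1 for 6 of them. The median difference over all probe sets kept was 0.06, and 1.43% of them were over 1 higher. The same array was lower than its partner for gut markers (8.70 against 10.0), testis markers (8.19 against 9.48) and male gland markers (7.35 against 8.67), and most for muscle (6.40 against 9.07). It was higher for photoreceptor markers (11.06 against 10.73), neuron markers (9.05 against 8.76) and fat body markers (9.66 against 9.45). Glia markers (10.15 against 10.41) and ovary markers (2.55 against 2.85) were lower on it. Their part in the members' values on this array was not tested. The description of the first IP array at ZT3 names ZT2 in place of the ZT3 of its title; ZT3 was used.

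Across the group, the fitted rhythm was about as large in the precipitate as in the extract. The peak-to-trough difference ran from 0.87 to 2.48 in IP, with a median of 1.17, and from 0.83 to 2.32 in INPUT, also with a median of 1.17. It was the larger in IP for 16 members and the smaller for 13. On a linear scale the median member differed 2.24-fold between peak and trough in IP and 2.25-fold in INPUT. R squared was 0.52 to 0.93 in IP and 0.57 to 0.89 in INPUT. The replicate SD, pooled over times, had a median of 0.26 in IP and 0.21 in INPUT. The peak-to-trough difference was at least 5 times the SD for 12 members in IP and 15 in INPUT. The rule asked for a rhythm of a set size and fit, which favours a high ratio, so nothing is read from these counts.

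**Figure D1:**
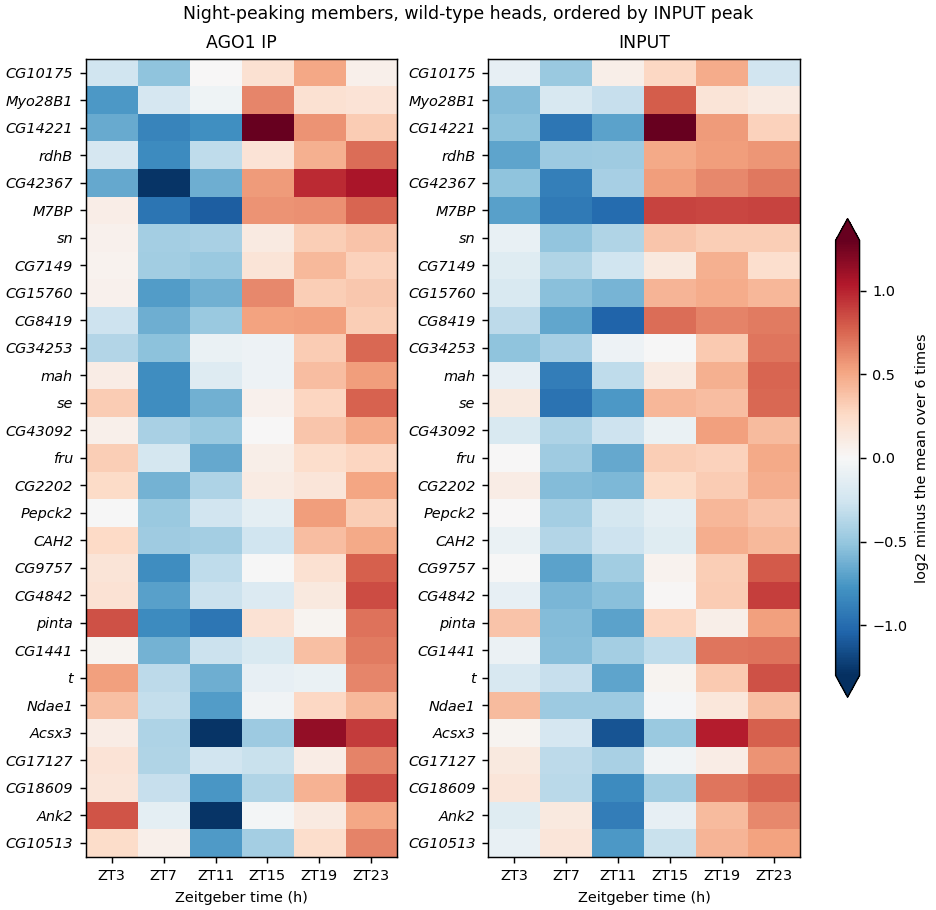
Level of each of the 29 members at the 6 times in wild-type heads (IP left, INPUT right), as the mean log2 value of a time minus the mean over the 6 times; rows run from the earliest INPUT peak at the top to the latest at the bottom. Red cells, the highest levels, lie at ZT15 to ZT23 in most rows and shift rightwards down the page, while the lowest levels lie at ZT7 (17 members in IP, 13 in INPUT) and ZT11 (11 in IP, 13 in INPUT).

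The measured maxima were concentrated in the last part of the night. ZT23 was the highest time for 18 members in IP and 17 in INPUT, ZT19 for 5 in IP and 7 in INPUT, and ZT15 for 3 in IP and 4 in INPUT. ZT3, in the light, was the highest time for the other 3 in IP (fru, pinta and Ank2) and the other 1 in INPUT (Ndae1). The lowest time was ZT7 for 17 members in IP and 13 in INPUT, and ZT11 for 11 in IP and 13 in INPUT, and it was ZT3 for 1 in IP and 3 in INPUT. All arrays of ZT19 and ZT23 lay above all arrays of ZT7 and ZT11 for 25 members in IP, where 2.6% of all probe sets did so, and for 27 in INPUT, where 2.93% did. The rule used this contrast, so nothing is read from these counts. CG10175, fru, Ank2 and CG10513 were the exceptions in IP, and CG10175 and Ank2 those in INPUT.

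Of the named members, 5 are known from the eye or its pigments, a grouping made by hand. The gene rdhB encodes a retinol dehydrogenase that takes part in making the visual chromophore in pigment cells. Its IP values were 7.17 and 8.66 at ZT3, 7.12 and 7.51 at ZT7, 7.91 and 7.71 at ZT11, 7.98 and 8.65 at ZT15, 8.32 and 8.87 at ZT19, and 8.53 and 9.19 at ZT23. Its INPUT values were 9.59 at ZT3, 9.80 and 9.79 at ZT7, 9.96 and 9.66 at ZT11, 10.59 and 10.94 at ZT15, 10.74 and 10.89 at ZT19, and 10.80 and 10.90 at ZT23. In INPUT all 6 night arrays lay above all 5 day arrays, with a near-level plateau through the night. In IP the second ZT3 array lay among the night values, and the replicate SD of 0.55 was the largest of any member in that fraction.

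The retinoid-binding protein of retinal pigment cells, pinta, had a later crest. In IP it read 7.4 and 8.01 at ZT3, 6.26 and 5.86 at ZT7, 6.16 and 5.71 at ZT11, 7.10 and 7.04 at ZT15, 6.88 and 6.95 at ZT19, and 7.76 and 7.4 at ZT23. Its INPUT values were 8.50 at ZT3, 7.88 and 7.26 at ZT7, 7.67 and 7.2 at ZT11, 8.53 and 8.29 at ZT15, 8.11 and 8.30 at ZT19, and 8.68 and 8.64 at ZT23. Both fractions were low at ZT7 and ZT11, already up at ZT15 and highest around dawn. Its fitted peaks were ZT22.7 in IP and ZT21.5 in INPUT, and its peak-to-trough difference was 1.60 (SE 0.40) in IP and 1.09 (SE 0.30) in INPUT.

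The eye-colour gene sepia (se) encodes the enzyme that makes the precursor of the red drosopterins. In IP it read 6.73 and 7.83 at ZT3, 6.05 and 6.23 at ZT7, 6.24 and 6.40 at ZT11, 6.83 and 7.19 at ZT15, 7.10 and 7.36 at ZT19, and 7.67 and 7.77 at ZT23. INPUT arrays gave 8.82 at ZT3, 7.78 and 7.68 at ZT7, 8.03 and 7.86 at ZT11, 8.98 and 9.26 at ZT15, 9.02 and 9.17 at ZT19, and 9.55 and 9.34 at ZT23. The ZT7 and ZT11 arrays were the lowest 4 in each fraction. The fitted difference was 2.76-fold in IP and 3.19-fold in INPUT.

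The gene tan (t) encodes the hydrolase that frees histamine, the photoreceptor transmitter, and dopamine from their beta-alanyl conjugates. In IP it read 9.12 and 9.83 at ZT3, 8.71 and 8.49 at ZT7, 8.37 and 8.24 at ZT11, 8.69 and 8.97 at ZT15, 8.78 and 8.94 at ZT19, and 9.57 and 9.58 at ZT23. In INPUT it read 10.63 at ZT3, 10.70 and 10.38 at ZT7, 10.19 and 10.14 at ZT11, 10.66 and 11.11 at ZT15, 11.04 and 11.33 at ZT19, and 11.50 and 11.84 at ZT23. Both fractions were lowest at ZT11 and highest at ZT23 on average, but at ZT3 the IP arrays were high while the INPUT array was not. Its fitted peak was ZT23.7 in IP and ZT21.7 in INPUT, the largest gap of any member, and without the second IP array at ZT3 the IP peak was ZT23.1. The fifth gene of the eye, mahogany (mah), an eye-colour gene whose product resembles amino acid transporters, ranged from 4.50 to 6.02 in IP and from 5.47 to 7.43 in INPUT, lowest at ZT7 and highest at ZT23 in both.

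**Figure D2:**
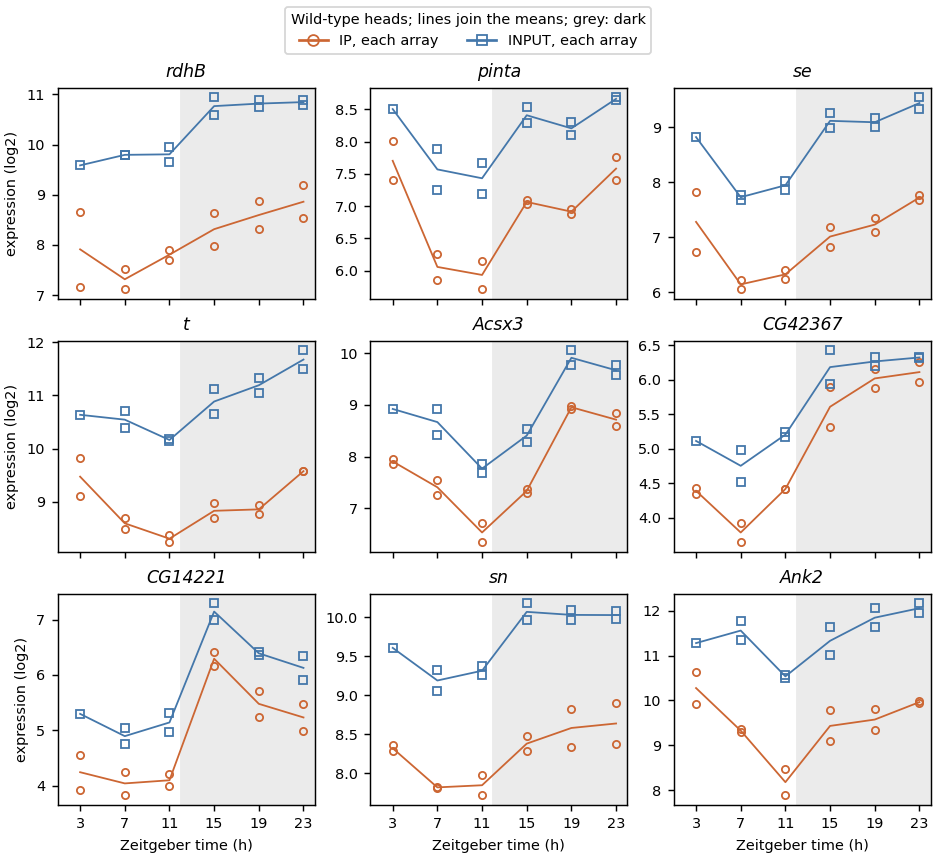
Log2 expression of 9 members against Zeitgeber time in wild-type heads, with 1 point for each array (IP circles, INPUT squares), lines through the means and the dark phase in grey. CG14221 steps up between ZT11 and ZT15 and declines by ZT23, sn and rdhB hold a plateau through the night in INPUT, and Acsx3 rises between ZT15 and ZT19.

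Other named members belong to the cytoskeleton or its partners, again grouped by hand. The largest INPUT rhythm of all members belonged to M7BP, a binding partner of Myosin-7a. In IP it read 7.36 and 8.52 at ZT3, 6.95 and 6.85 at ZT7, 6.80 and 6.76 at ZT11, 7.97 and 8.89 at ZT15, 8.16 and 8.74 at ZT19, and 8.44 and 8.77 at ZT23. Its INPUT values were 8.06 at ZT3, 7.91 and 7.79 at ZT7, 7.84 and 7.69 at ZT11, 9.45 and 9.84 at ZT15, 9.51 and 9.77 at ZT19, and 9.72 and 9.57 at ZT23. The INPUT values fall into 2 flat levels, all 5 day arrays at or below 8.06 and all 6 night arrays at or above 9.45, and the fitted difference was 3.89-fold in IP and 4.98-fold in INPUT.

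The unconventional myosin Myo28B1 was highest at ZT15. Its 2 arrays there read 5.29 and 6.17 in IP and 6.98 and 7.21 in INPUT, while its lowest values were 4.16 in IP and 5.75 in INPUT, both at ZT3. The actin bundler fascin, encoded by singed (sn), had a small and even rhythm, from 7.72 to 8.90 in IP and from 9.05 to 10.18 in INPUT, with all 6 night arrays of INPUT between 9.96 and 10.18. The ankyrin gene Ank2 is needed for stable synapses and axons. In IP it read 9.93 and 10.63 at ZT3, 9.36 and 9.30 at ZT7, 7.90 and 8.47 at ZT11, 9.09 and 9.78 at ZT15, 9.34 and 9.81 at ZT19, and 9.94 and 9.99 at ZT23. INPUT arrays gave 11.28 at ZT3, 11.76 and 11.35 at ZT7, 10.56 and 10.51 at ZT11, 11.02 and 11.63 at ZT15, 11.62 and 12.06 at ZT19, and 11.94 and 12.16 at ZT23. Only the ZT11 arrays lay below all others in each fraction, and the ZT7 arrays lay within the range of the night arrays.

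The remaining named members have roles in regulation, metabolism and transport. The BTB zinc-finger factor fru, which acts in courtship neurons, ranged from 7.12 to 8.39 in IP and from 8.11 to 9.63 in INPUT; its IP rhythm of 0.87 (SE 0.27) was the smallest in that fraction. Acsx3, named as a member of the acyl-CoA synthetase family, had a rhythm second only to CG42367 in IP. In IP it read 7.86 and 7.95 at ZT3, 7.55 and 7.26 at ZT7, 6.72 and 6.34 at ZT11, 7.29 and 7.38 at ZT15, 8.93 and 8.98 at ZT19, and 8.84 and 8.58 at ZT23. In INPUT it read 8.92 at ZT3, 8.91 and 8.42 at ZT7, 7.85 and 7.68 at ZT11, 8.54 and 8.27 at ZT15, 9.77 and 10.05 at ZT19, and 9.57 and 9.76 at ZT23. The step came between ZT15 and ZT19 in both fractions, later than for se and M7BP, and the fitted difference was 4.71-fold in IP and 3.83-fold in INPUT.

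Pepck2, a phosphoenolpyruvate carboxykinase of gluconeogenesis, ranged from 7.11 to 8.65 in IP and from 8.65 to 9.81 in INPUT, highest at ZT19 in both. The carbonic anhydrase CAH2 ranged from 7.57 to 8.77 in IP and from 8.52 to 9.64 in INPUT. The sodium-driven anion exchanger Ndae1 ranged from 6.85 to 8.11 in IP and from 7.31 to 8.55 in INPUT. Ndae1 had the tightest IP replicates of all members, with an SD of 0.07.

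Among members known by number, CG14221 and CG42367 had the largest peak-to-trough differences in IP. CG14221 in IP read 3.93 and 4.56 at ZT3, 3.83 and 4.25 at ZT7, 3.99 and 4.20 at ZT11, 6.16 and 6.42 at ZT15, 5.24 and 5.71 at ZT19, and 4.99 and 5.47 at ZT23. Its INPUT values were 5.30 at ZT3, 4.75 and 5.03 at ZT7, 4.97 and 5.31 at ZT11, 7.0 and 7.29 at ZT15, 6.36 and 6.42 at ZT19, and 5.91 and 6.35 at ZT23. The 2 ZT15 arrays were above all others in each fraction, and the level fell through the night. Its IP values by day lie close to the low end of the arrays, where log2 differences are compressed.

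CG42367 in IP read 4.43 and 4.34 at ZT3, 3.92 and 3.64 at ZT7, 4.42 and 4.41 at ZT11, 5.32 and 5.90 at ZT15, 5.88 and 6.16 at ZT19, and 5.97 and 6.26 at ZT23. INPUT arrays gave 5.11 at ZT3, 4.51 and 4.99 at ZT7, 5.25 and 5.16 at ZT11, 5.94 and 6.43 at ZT15, 6.33 and 6.20 at ZT19, and 6.33 and 6.32 at ZT23. Night and day arrays did not overlap in either fraction. It had the highest R squared of any member, 0.93 in IP and 0.89 in INPUT, and its fitted difference was 5.57-fold in IP and 3.29-fold in INPUT. As for CG14221, its IP values by day, 3.64 to 4.43, lie close to the low end of the arrays, where log2 differences are compressed.

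CG8419 changed 2.49-fold in IP and 3.60-fold in INPUT, with all 6 INPUT night arrays between 7.08 and 7.21. CG18609 changed 2.84-fold in IP and 3.12-fold in INPUT, with its highest time at ZT23 in both. CG10513, with the latest fitted peaks, ZT23.9 in IP and ZT23.3 in INPUT, changed 2.35-fold in IP and 2.12-fold in INPUT. The other members known by number had peak-to-trough differences of 0.88 to 1.24 in IP and of 0.83 to 1.40 in INPUT.

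Some probe sets missed the rule on 1 limit alone. In IP the smallest peak-to-trough differences inside were those of fru (0.87) and CG10175 (0.88), and just outside lay Culd and a second probe set of M7BP (both 0.79). In INPUT they were CG7149 (0.83) and Pepck2 (0.85) inside, with CG1695 and exp (both 0.75) outside. The lowest R squared inside was 0.52 in IP, for CG2202 and CG4842, and 0.57 in INPUT, for Myo28B1 and CG34253. Outside, CG6429 (0.35) and CG31103 (0.34) failed on R squared in IP alone, and CG10553 (0.49) in INPUT alone. The latest IP peaks inside were CG10513 (ZT23.9) and Ank2 (ZT23.8), and CG5644 (ZT0.14) and CG32369 (ZT0.17) fell just past the limit.

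Other probe sets exist for 6 of the genes, 15 in all, and not all carried the rhythm. The closest repeat was for Ank2, where 1 of 4 others had a peak-to-trough difference of 1.41 in IP and 1.89 in INPUT; its IP peak at ZT0.21 kept it out. One of 2 others for M7BP had 0.79 in IP and 0.86 in INPUT, and the second had 0.19 in IP and 0.09 in INPUT. The other probe set for Ndae1 had 0.72 in IP and 0.77 in INPUT. For fru, 6 others had at most 0.50 in IP and 0.76 in INPUT, and the other probe sets for CG42367 and Myo28B1 had at most 0.25 in either fraction. Which transcript forms these probe sets read was not tested.

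The fitted peaks spread over the night in a similar order in both fractions, and most were later in the precipitate. Peaks ran from ZT16.4 to ZT23.9 in IP, with a median of ZT21.5, and from ZT16.7 to ZT23.3 in INPUT, with a median of ZT20.7. The IP peak was later for 23 members and earlier for 6, by a median of 0.66 h and a range of -0.80 to 1.98 h, and for 10 members by over 1 h. Among the 42 probe sets that peaked at other times it was later for 28, by a median of 0.24 h. The rule used both peak times, so no test is given.

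This delay rests in part on ZT3, where INPUT has 1 array and the 2 IP arrays disagree. Without the second IP array at ZT3, the IP peak was later for 18 members and the median was 0.34 h. Without the first, it was later for 24 and the median was 0.98 h. Without the lone INPUT array at ZT3 it was later for 21 and the median was 0.31 h. Over all 23 fits that leave out 1 wild-type array, the count ran from 18 to 25.

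**Figure D3:**
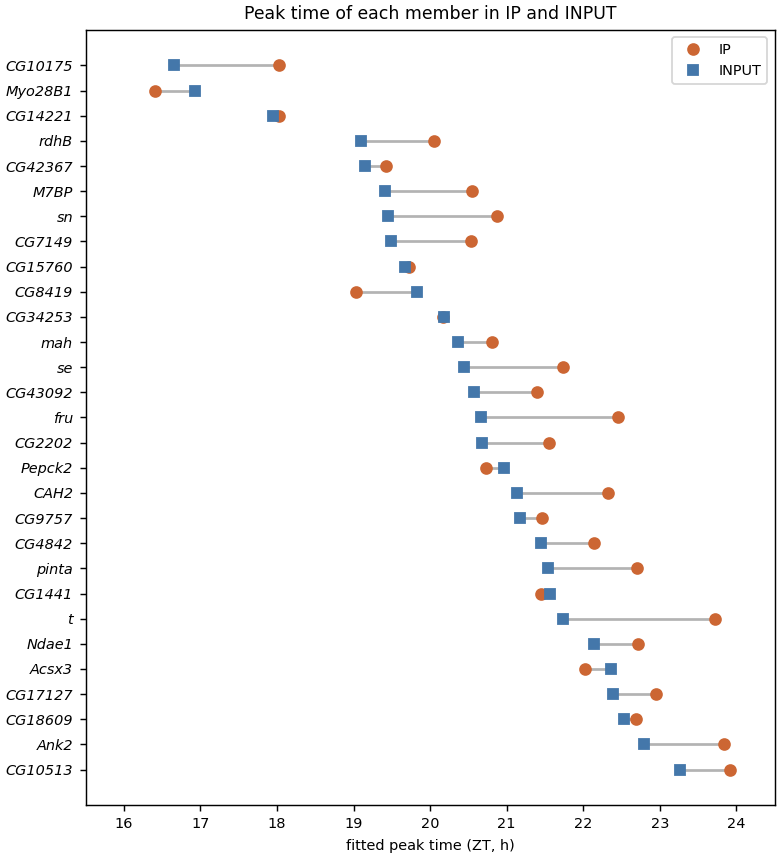
Fitted peak time (ZT, h) of each member in wild-type heads, with IP as circles and INPUT as squares joined by a line, ordered by INPUT peak. The circle lies to the right of the square for 23 of 29 members, most widely for t and fru, and to its left for 6, most widely for CG8419.

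Clock genes crested at other times on the same arrays. The fitted peak of per was ZT14.2 in IP and ZT13.9 in INPUT, and that of vri ZT12.3 in both. Clk crested at ZT2.17 in IP and ZT1.32 in INPUT, and cry at ZT4.68 in IP and ZT4.45 in INPUT. The members' peaks lie between these because the rule kept only peaks from ZT16 to ZT24.

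The mean difference between IP and INPUT over the day was not itself a condition of the rule. The rule did ask for an INPUT mean above 5 and for a rhythm of a set size in IP, which needs signal there. Probe sets set beside the members need not meet these limits. The part of the limits in the counts below was not tested. IP and INPUT arrays have different overall levels as deposited, so values are given relative to the median of each array. On that scale 12 of 29 members were higher in IP, against 26.3% of all probe sets, and 7 were lower, against 33.2%; 10 did not pass (limma, adjusted p under 0.05). The members' median was 0.10 and that of all probe sets -0.04. In units as deposited, 2 members were higher, against 3.63% of all, and 26 lower, against 93.1%, with medians of -1.17 for the members and -1.31 for all. Relative to the array median the group therefore held transcripts higher in IP and transcripts lower in IP, while as deposited most were lower.

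CG7149 had the highest IP level relative to INPUT. It read 8.91 and 9.43 at ZT3, 8.67 and 8.68 at ZT7, 8.60 and 8.70 at ZT11, 9.02 and 9.57 at ZT15, 9.34 and 9.77 at ZT19, and 9.34 and 9.52 at ZT23 in IP. In INPUT it read 8.53 at ZT3, 8.38 and 8.19 at ZT7, 8.32 and 8.53 at ZT11, 8.59 and 9.03 at ZT15, 8.93 and 9.35 at ZT19, and 8.86 and 8.93 at ZT23. IP lay above INPUT at every time even as deposited, and relative to the array median the difference was 1.71 (SE 0.10, 3.28-fold, limma adjusted p = 1.32e-10).

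CG43092 was higher in IP by 1.48 (SE 0.09, 2.78-fold), CG34253 by 1.16 (SE 0.10, 2.24-fold) and Ndae1 by 0.86 (SE 0.08, 1.81-fold). CG7149 and CG43092 were the 2 members that also stayed higher as deposited. CG42367 (0.68), CG9757 (0.66), CG15760 (0.59), CG10513 (0.53), CAH2 (0.44), M7BP (0.35), CG14221 (0.33) and CG17127 (0.29) were also higher. The call for M7BP was lost without any one of 13 of the 23 arrays, with adjusted p = 0.301 without the INPUT array at ZT3.

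Of the 5 eye genes, 3 were lower in IP, beside 33.2% of all probe sets. Relative to the array median, IP minus INPUT was -0.87 for rdhB (SE 0.15), -0.64 for t (SE 0.10) and -0.48 for se (SE 0.11), all lower in IP. The values of pinta (0.01, SE 0.11) and mah (0.10, SE 0.10) did not pass the test. CG18609 had the lowest value, -1.70 (SE 0.12, 3.25-fold lower), followed by CG1441 at -1.16 (SE 0.14) and Ank2 at -0.71 (SE 0.13). CG2202 was the last of the 7, at -0.47 (SE 0.12). The remaining named genes, Acsx3 (0.18), fru (0.10), Myo28B1 (0.04), Pepck2 (-0.13) and sn (-0.18), did not pass the test. Core clock genes were split as well, with 5 of 16 higher and 7 lower; Clk was at 1.58 (SE 0.06) and cry at -1.47 (SE 0.09).

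**Figure D4:**
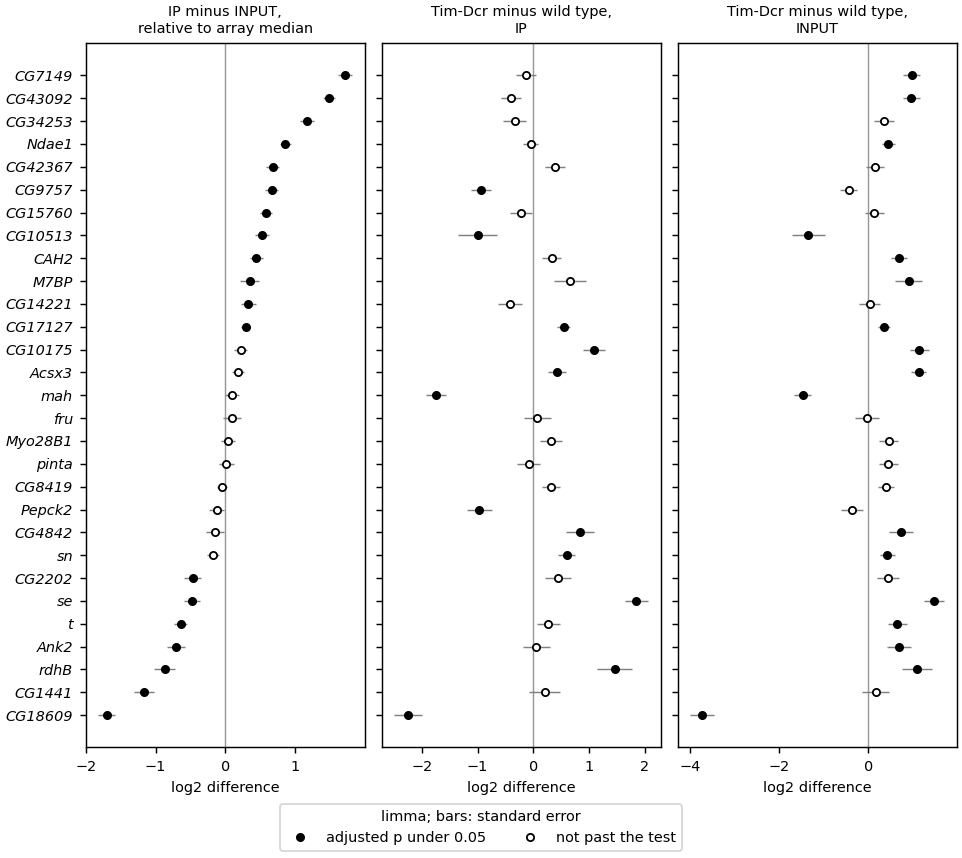
Log2 difference with its standard error (limma) for each member, for IP minus INPUT in wild-type heads relative to the array median (left), and for Tim-Dcr minus wild type in IP (middle) and in INPUT (right); filled points have an adjusted p under 0.05. Members are ordered by the left panel, from CG7149 (1.71) at the top to CG18609 (-1.70) at the bottom, and the Tim-Dcr panels do not follow that order.

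Tim-Dcr heads were not used in choosing the members, and each Tim-Dcr array was set against wild-type arrays of the same fraction and time. Those wild-type arrays did choose the members, by level and rhythm, and the probe sets set beside the members need not meet these limits. The part of this choice in the counts was not tested. In IP, 7 members were higher in Tim-Dcr, against 27% of all probe sets, and 5 lower, against 17% (limma, adjusted p under 0.05). In INPUT, 14 were higher, against 32.3% of all, and 3 lower, against 17%. The members' median offset was 0.20 in IP and 0.45 in INPUT, and that of all probe sets 0.17 in IP and 0.23 in INPUT. Acsx3, CG10175, CG17127, CG4842, rdhB, se and sn were higher in both fractions, CG10513, CG18609 and mah were lower in both, and 10 members passed in neither. Centring arrays on their medians raises every offset by 0.32 in IP and 0.21 in INPUT, for members and other probe sets alike. On that scale 14 members were higher and 4 lower in IP, and 19 higher and 3 lower in INPUT. The shares of all probe sets given above do not apply to centred arrays, so nothing about the members is read from these counts.

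These counts lean on single arrays. In INPUT, 6 members were higher without the Tim-Dcr array at ZT3 and 7 without that at ZT15, and 6 without the wild-type array at ZT3 and 9 without the first at ZT15. The INPUT calls lost without either ZT3 array were those of sn, Ndae1, Ank2, CG4842, rdhB, M7BP, t and CG17127. In IP, 4 were higher and 3 lower without the Tim-Dcr array at ZT3. Markers of other tissues also differed between the genotypes. All 3 gut, 3 testis and 3 male gland markers were lower on every Tim-Dcr array than on every wild-type array, in both fractions, with a mean for the gland list of 3.97 to 6.52 in Tim-Dcr INPUT and 10.5 to 11.4 in wild-type INPUT. Of 5 measured fat body markers, 5 in IP and 4 in INPUT were higher on every Tim-Dcr array, as were 2 of 4 neuron markers in each fraction and, of 3 glia markers, 1 in IP and 2 in INPUT. The neuron list averaged 9.25 to 9.27 in Tim-Dcr IP and 8.33 to 9.05 in wild-type IP, and 9.99 to 10.17 in Tim-Dcr INPUT and 9.48 to 9.98 in wild-type INPUT. The glia list averaged 11.39 to 11.43 in Tim-Dcr INPUT and 10.56 to 10.92 in wild-type INPUT. The part of these lists in the members' offsets was not tested. The photoreceptor list averaged 10.99 and 11.01 in Tim-Dcr IP and 10.3 to 11.1 in wild-type IP, and 12.2 to 12.3 in Tim-Dcr INPUT and 11.9 to 12.3 in wild-type INPUT.

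Sepia was the member highest in Tim-Dcr. Its Tim-Dcr values were 9.13 at ZT3 and 8.87 at ZT15 in IP, against 6.73 and 7.83 at ZT3 and 6.83 and 7.19 at ZT15 in wild-type IP. In INPUT they were 10.29 at ZT3 and 10.61 at ZT15, against 8.82 at ZT3 and 8.98 and 9.26 at ZT15 in wild type. The Tim-Dcr arrays lay above every wild-type array of any time in both fractions. The offset was 1.85 in IP (SE 0.21, 3.61-fold, limma adjusted p = 7.26e-06) and 1.48 in INPUT (SE 0.22, 2.79-fold, adjusted p = 4.35e-05).

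The other eye genes did not all move with se. Offsets for rdhB were 1.47 in IP (SE 0.32) and 1.10 in INPUT (SE 0.34), and both passed the test. That of t was 0.66 in INPUT (SE 0.21), which passed, and 0.27 in IP (SE 0.20), which did not. Without the wild-type INPUT array at ZT3, the INPUT offset was 0.79 for rdhB (limma adjusted p = 0.165) and 0.32 for t (limma adjusted p = 0.333). The offset of pinta was -0.08 in IP (SE 0.21) and 0.45 in INPUT (SE 0.22), and neither passed. The eye-colour gene mah went the other way. It read 3.57 at ZT3 and 3.79 at ZT15 in Tim-Dcr IP, against 5.10 and 5.91 at ZT3 and 5.40 and 5.28 at ZT15 in wild-type IP. Its INPUT values were 4.92 at ZT3 and 5.26 at ZT15 in Tim-Dcr, against 6.47 at ZT3 and 6.58 and 6.79 at ZT15 in wild type. That is an offset of -1.75 in IP (SE 0.18, 3.35-fold lower) and -1.48 in INPUT (SE 0.20, 2.78-fold lower).

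CG18609 was the member farthest below wild type in Tim-Dcr. It read 3.26 at ZT3 and 2.92 at ZT15 in Tim-Dcr IP, against 5.69 and 5.52 at ZT3 and 5.46 and 4.66 at ZT15 in wild-type IP. INPUT arrays gave 4.52 at ZT3 and 4.49 at ZT15 in Tim-Dcr, against 8.57 at ZT3 and 8.52 and 7.41 at ZT15 in wild type. The offset was -2.24 in IP (SE 0.25, 4.74-fold lower) and -3.73 in INPUT (SE 0.27, 13.2-fold lower, limma adjusted p = 1.25e-07). The 2 Tim-Dcr IP values lie near the bottom of the array's scale, where differences are compressed. Its Tim-Dcr INPUT values lie below 5, the mean INPUT level that the rule asked of wild type.

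CG10513 was below wild type at both times, by little at ZT3 and by far more at ZT15. It read 8.40 at ZT3 and 6.45 at ZT15 in Tim-Dcr IP, against 8.53 and 8.99 at ZT3 and 8.37 and 7.81 at ZT15 in wild-type IP. In INPUT it read 8.99 at ZT3 and 6.75 at ZT15 in Tim-Dcr, against 9.17 at ZT3 and 9.24 and 8.71 at ZT15 in wild type. Its offset of -1.0 in IP (SE 0.34) and -1.35 in INPUT (SE 0.37) passed the test; without the Tim-Dcr array at ZT15 the values were -0.36 (limma adjusted p = 0.613) and -0.18 (adjusted p = 0.798).

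Among other members, CG10175 was higher in Tim-Dcr by 1.08 in IP (SE 0.20) and 1.15 in INPUT (SE 0.21). Without the Tim-Dcr INPUT array at ZT15 its INPUT offset was 0.78 and the call was lost. Acsx3 was higher by 0.42 in IP (SE 0.16) and 1.13 in INPUT (SE 0.17), and its IP call was lost without 1 array in 5 cases. The fascin gene sn was higher by 0.60 in IP (SE 0.15) and 0.43 in INPUT (SE 0.16). In each fraction the call for sn was lost on leaving out either Tim-Dcr array of that fraction. Pepck2 (-0.97, SE 0.23) and CG9757 (-0.94, SE 0.19) passed as lower in IP, and their INPUT offsets of -0.36 and -0.44 did not pass. Without the Tim-Dcr IP array at ZT3 the IP offset was -0.67 for each, and both calls were lost. M7BP (0.91), CG7149 (0.98), CG43092 (0.97), Ank2 (0.70), CAH2 (0.69) and Ndae1 (0.46) were higher in INPUT, and their IP offsets did not pass. The INPUT calls of Ank2, CAH2 and Ndae1 were lost without the Tim-Dcr INPUT array at ZT15. For fru the offset was 0.07 in IP (SE 0.24) and -0.03 in INPUT (SE 0.26).

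Whether an offset differed between the fractions was tested directly. The difference, IP offset minus INPUT offset, was higher for 1 member, against 0.789% of all probe sets, and lower for 2, against 1.94% (limma, adjusted p under 0.05). It was -1.37 for CG43092 (SE 0.26, adjusted p = 0.0161), -1.11 for CG7149 (SE 0.27, adjusted p = 0.0383) and 1.48 for CG18609 (SE 0.37, adjusted p = 0.0419). CG43092 and CG7149 are also the members highest in IP relative to INPUT in wild type. Both measures use the wild-type arrays of ZT3 and ZT15, with opposite sign, so nothing is read from this overlap. Their Tim-Dcr offsets in IP, -0.40 and -0.14, did not pass the test, and those in INPUT did. All 3 calls were lost without the Tim-Dcr IP array at ZT3, without either Tim-Dcr INPUT array or without the wild-type INPUT array at ZT3.

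The 2 times in Tim-Dcr also give a view of the rhythm in heads that did not choose the members. A cosine that crests at ZT21 has the same level at ZT3 and ZT15; one that crests earlier is higher at ZT15 and one that crests later is lower. With 1 array per time there is no test, and 2-fold differences were counted. In IP, 4 members were at least 2-fold higher at ZT15 than at ZT3, against 0.657% of all probe sets, and 1 was 2-fold lower, against 4.79%. In INPUT, 3 were higher, against 0.265%, and 1 lower, against 5.56%.

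CG14221 had the largest step. In Tim-Dcr IP it read 5.92 at ZT15 and 3.78 at ZT3, and in Tim-Dcr INPUT 7.48 at ZT15 and 4.93 at ZT3. The ZT15 minus ZT3 difference was 2.14 in Tim-Dcr and 2.05 in wild type in IP, and 2.55 in Tim-Dcr and 1.85 in wild type in INPUT. Myo28B1 followed, with 1.73 in Tim-Dcr and 1.39 in wild type in IP, and 1.43 in Tim-Dcr and 1.35 in wild type in INPUT. CG42367 (1.63) and CG15760 (1.44) passed 2-fold in IP and were at 0.84 and 0.73 in INPUT, while CG10175 passed it in INPUT (1.03) and was at 0.82 in IP. CG10513 was the member 2-fold lower in both, by -1.95 in IP and -2.24 in INPUT, against -0.67 in IP and -0.20 in INPUT in wild type.

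The sign of the step in Tim-Dcr followed the wild-type INPUT peak for most members. Of 17 members that crested before ZT21, 13 in IP and 14 in INPUT were above 0, with medians of 0.19 in IP and 0.49 in INPUT. Of 12 that crested after ZT21, 11 in IP and 10 in INPUT were below 0, with medians of -0.45 in IP and -0.27 in INPUT. Of all probe sets, 58.3% in IP and 64.1% in INPUT were above 0. The sign was the same as in wild type for 24 members in IP and 23 in INPUT. Across the 29 members the Tim-Dcr and wild-type differences had a Pearson r of 0.86 in IP and 0.74 in INPUT (Spearman 0.81 in IP and 0.72 in INPUT), given as a description, since genes of 1 array are not independent.

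Centring the arrays adds 0.02 in IP and 0.12 in INPUT to each of these differences. It left 11 of 12 late members below 0 in IP and 6 of 12 in INPUT, so the INPUT count depends on the scale. Gut, testis and male gland markers were also lower at ZT15 than at ZT3 in Tim-Dcr. The gland means were 2.83 at ZT15 and 4.11 at ZT3 in IP, and 3.97 at ZT15 and 6.52 at ZT3 in INPUT. So was the muscle marker Act88F, at 5.54 at ZT15 and 7.76 at ZT3 in IP, and 6.20 at ZT15 and 8.96 at ZT3 in INPUT. The part of these markers in the members' differences was not tested. In the same heads the clock gene per was higher at ZT15 by 1.89 in IP and 2.26 in INPUT (1.74 in IP and 2.38 in INPUT in wild type), and vri by 3.97 in IP and 3.58 in INPUT (2.66 in IP and 2.20 in INPUT in wild type). Clk stood at -1.51 in IP and -2.16 in INPUT (-1.94 in IP and -1.37 in INPUT in wild type), and cry at -0.96 in IP and -0.92 in INPUT (-1.05 in IP and -1.14 in INPUT in wild type).

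**Figure D5:**
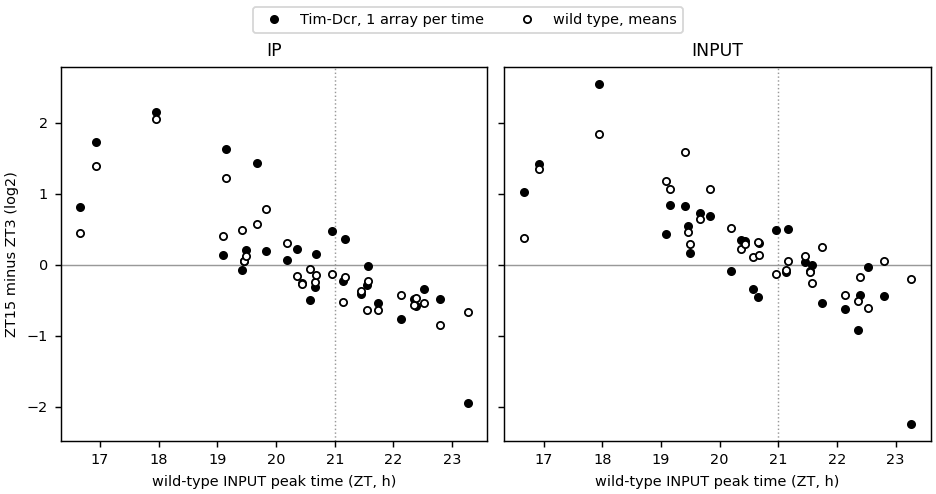
ZT15 minus ZT3 (log2) of each member against its wild-type INPUT peak time (ZT, h), in IP (left) and INPUT (right); filled points are Tim-Dcr (1 array per time), open points wild type (means of the arrays), and the dotted line marks ZT21. Points lie mostly above 0 left of the line and below 0 right of it, with CG14221 highest in Tim-Dcr (2.14 in IP, 2.55 in INPUT) and CG10513 lowest (-1.95 in IP, -2.24 in INPUT).

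A 12 h wave was tested beside the 24 h one. No member passed in IP, where 0.0193% of all probe sets did, or in INPUT, where 0% did (limma, adjusted p under 0.05). At an unadjusted limma p under 0.05 there were 10 of 29 members in IP and 6 in INPUT. Of all 15517 probe sets there were 891 in IP and 527 in INPUT. The rule asked for a good 24 h fit of a set size, so these counts have no meaning of their own. By smallest p, the leading 12 h terms were those of pinta in IP (12 h peak-to-trough 1.06, limma adjusted p = 0.453) and Acsx3 in INPUT (0.79, limma adjusted p = 0.9997). The largest 12 h peak-to-trough in INPUT was that of CG14221 (0.90).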

How the data were processed

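Expression was measured on Affymetrix Drosophila arrays, 23 from wild-type and 4 from Tim-Dcr heads. As deposited, each probe set has a log2 value that the authors computed with GCRMA, per the submitters' processing notes (version not given in the sources used here). Array means lay near 5.1 to 5.2 in IP and 6.4 in INPUT, as if each fraction had been normalized as a set of its own.

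Control probe sets (183) were left out. Probe sets with log2 above 4 in at least 3 arrays entered the tests, 15517 for wild type and 15835 with Tim-Dcr; all 29 members did. Tests used limma 3.58.1 in R 4.3.3 (lmFit, eBayes, Benjamini-Hochberg over all probe sets kept, adjusted p under 0.05) and were tried on simulated data. IP minus INPUT was the mean over 6 times, on arrays centred on the median of their kept probe sets (11 residual degrees of freedom). The Tim-Dcr offset was fitted per fraction on all 27 arrays (13 residual degrees of freedom), so each lone Tim-Dcr array is assumed to vary like the wild type. Standard errors of peak-to-trough differences come from each probe set's own fit. Python 3.11.15 with pandas 2.3.3 and matplotlib 3.10.9 made tables and plots.

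Groups come from the titles. Same-numbered INPUT and IP arrays deviated together from their means, with correlations of 0.417, 0.394, 0.664, 0.429 and 0.381 at ZT7, ZT11, ZT15, ZT19 and ZT23, so the numbers were taken as pairs and a paired fit was run as an alternative. The members, marker and clock lists, tests and alternatives were chosen with earlier results of these data known. Members described singly are those with a gene name, the 12 best fitted in both fractions, and the extremes of each comparison. The difference between the IP and INPUT offsets was added after seeing the data. Precision is limited by how few arrays there are per group.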

Additional observations from a re-analysis of the deposited data

Results flagged for a closer look

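For 3 members the difference between Tim-Dcr and wild type was not the same in the precipitate and in the extract, by limma's test of the difference itself. The IP offset minus the INPUT offset was -1.37 for CG43092 (SE 0.26), whose offset was -0.40 in IP and 0.97 in INPUT. It was -1.11 for CG7149 (SE 0.27), with -0.14 in IP and 0.98 in INPUT. It was 1.48 for CG18609 (SE 0.37), with -2.24 in IP and -3.73 in INPUT; the Tim-Dcr IP values of this gene were 3.26 and 2.92, near the bottom of the scale. Each rests on 1 Tim-Dcr array per fraction and time, and each call was lost when any one of several arrays was left out.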

How the results depend on the processing

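The number of members was 17 with a peak-to-trough difference of at least 1.0, and 22 to 35 under the other settings. Leaving out 1 wild-type array at a time gave 26 to 32 members, and 15 of the 29 were kept in all 23 such fits. On values as deposited, 2 members were higher and 26 lower in IP, and 10 members called higher on centred arrays fell below 0, as the overall offset between fractions is then included: CG10513 (-0.74), CAH2 (-0.83), CG15760 (-0.68), CG9757 (-0.60), CG34253 (-0.10), CG42367 (-0.59), Ndae1 (-0.41), CG14221 (-0.94), M7BP (-0.92) and CG17127 (-0.97). All of these but CG34253 (limma adjusted p = 0.332) passed the test as lower. With INPUT and IP arrays of the same number paired as a replicate block (11 pairs, the second IP array at ZT3 dropped for want of a partner), 14 were higher and 10 lower, against 12 and 7 without the block, and no call was lost. Leave-one-out counts for IP against INPUT were 11 to 13 higher and 7 to 8 lower.

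For Tim-Dcr against wild type, leaving out 1 array gave 4 to 10 higher and 3 to 6 lower in IP, and 6 to 14 higher and 2 to 4 lower in INPUT. Centring gave 14 higher in IP, on a scale that raises the IP offset of every probe set by 0.32. No share of all probe sets was set beside that count. For the difference of the offsets the counts were 0 to 1 higher and 0 to 2 lower on leaving out 1 array, and 1 lower on centred arrays, where CG7149 (-0.99, limma adjusted p = 0.0780) lost its call; so did CG10513 in IP (-0.68, limma adjusted p = 0.0682). At 1.5-fold, ZT15 against ZT3 in Tim-Dcr gave 2 lower in IP and 7 higher and 3 lower in INPUT. The members higher in IP at that limit were CG14221, Myo28B1, CG42367, CG15760 and CG10175. No share of all probe sets at 1.5-fold was set beside these counts, so nothing is read from them. Counts with no filter on low values or with an intensity trend stayed within 1.5 times those reported. The search of promoters for motifs was not run, since no promoter sequence was used here. Causes of these changes were not tested beyond what each setting does by construction. Lone arrays at INPUT ZT3 and in Tim-Dcr, and low IP signal for some members, limit precision.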
